A study of Homo sapiens with 8 samples.

Results

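The genes described here encode the cytosolic factors that start translation (eIF1 to eIF6) and lengthen the peptide chain (eEF1 and eEF2), with the enzymes and binding proteins that share their gene symbols. They were chosen by symbol alone, as entries whose symbol begins with EIF1 to EIF6 or with EEF1 or EEF2, without the eIF2 kinases. Of the 63816 entries of the expression table, 212 matched. After 137 pseudogenes, 3 antisense or divergent transcripts and 5 repeats of a symbol were left out, 67 genes remained. EIF4EBP1, EIF4EBP2 and EIF4EBP3 end in a P and a digit like many pseudogenes but encode proteins that bind eIF4E, and were kept. The RNA-seq samples are labelled Caco-2, an established line derived from a human colorectal adenocarcinoma. They were made to learn what forced expression of Siglec-XII does to cells that lack it. Siglec-XII belongs to a family of sialic acid receptors, but the paper states that the human protein cannot recognize sialic acids. There were 4 samples of cells carrying the empty plasmid pcDNA3.1 and 4 of cells carrying pcDNA3.1 with full-length SIGLEC12, and the cells of both groups had been selected for stable uptake of the plasmid with the drug G418. Since each group goes back to its own transfection and selection, Siglec-XII and the history of the selected cells cannot be told apart as sources of a difference. The series is described with 3 cultures per condition and technical replicate libraries, while 4 samples are listed, so whether these are separate cultures is not known and p-values measure the spread between these samples, which may be technical. Levels are given as log2(TPM + 1), where TPM is transcripts per 1000000 transcripts and already accounts for transcript length, and differences are log2 values of Siglec-XII minus empty vector on that scale.

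Translation starts when eIF2 delivers the initiator tRNA to the small ribosomal subunit, while eIF3 holds the subunit and the eIF4 group binds the mRNA cap and unwinds the leader. eIF1, eIF1A and eIF5 then govern the choice of the start codon, and eIF5B joins the large subunit. In elongation eEF1A brings each aminoacyl-tRNA, the eEF1B subunits recharge it with GTP, and eEF2 moves the ribosome by a codon. Many of these messages, like those of the ribosomal proteins, begin with a 5′ terminal oligopyrimidine (TOP) tract, a C followed by a run of C and T, through which mTOR and LARP1 adjust how much of them is translated.

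The start of the transcript therefore divides these genes into 2 classes, and some of each are shown. Each line gives 30 bases of the sense strand from RefSeq (GRCh38.p14), 15 before the annotated start and 15 from it, with the first 5 transcribed bases in capitals. The first 7 lines are factors named in the results for which at least 1 annotated start is a C followed by 4 letters that are each C or T, and the last 4 are factors with higher values in the Siglec-XII samples that lack it. These 4 were picked by direction and do not stand for all factors without the tract. Of those, 25 of 35 tested were higher and 10 lower in the deposited values. EEF1B2 has 2 annotated starts, of which 1 has the tract.
EEF1A1 (chr6:73521018-73521047, minus strand): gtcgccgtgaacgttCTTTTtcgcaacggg
EEF1B2 downstream start (chr2:206159880-206159909, plus strand): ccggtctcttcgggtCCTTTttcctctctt
EEF1B2 upstream start (chr2:206159594-206159623, plus strand): gccggaagtggccccAGCCTcgaggccggg
EEF2 (chr19:3985449-3985478, minus strand): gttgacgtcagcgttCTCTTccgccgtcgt
EIF4A2 (chr3:186783562-186783591, plus strand): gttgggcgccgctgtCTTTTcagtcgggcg
EIF4B (chr12:53006441-53006470, plus strand): ttgcctcatccgggtCTTTTgcgttctctt
EIF3F (chr11:7987322-7987351, plus strand): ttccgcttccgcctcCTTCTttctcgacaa
EIF1AD (chr11:66002143-66002172, minus strand): cgagacagcgccggaAGTACggttttcgga
EIF3B (chr7:2354812-2354841, plus strand): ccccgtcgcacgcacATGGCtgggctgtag
EIF4A3 (chr17:80147114-80147143, minus strand): gttctcggcagcggcACAGCgaggtcggca
EIF2S1 (chr14:67360313-67360342, plus strand): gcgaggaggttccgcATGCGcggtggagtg
The letters were read on the sense strand at the annotated start only. Of 35116 windows in the table, 1429 (4.07%) have the tract at that place, as do 57 of 77 tested ribosomal protein symbols with a window (74%). Of the 67 factors, 54 have a window. A match describes these letters and is not proof of how the message is regulated.

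The labels were checked first. SIGLEC12 lay between 0.06 and 0.17 in the 4 empty vector samples and between 10.63 and 10.76 in the 4 Siglec-XII samples (exact permutation test, two-sided, p = 0.0286, which is the lower limit for groups of this size). Of 13 markers of colon epithelium, 3 passed the filter on low values (CDX1, CDX2 and EPCAM), and KRT20, FABP1 and PHGR1 were at 0 in every sample. The summed level of the 13, which is nearly all EPCAM, CDX1 and CDX2, ranged from 710 to 736 TPM with the empty vector and from 734 to 792 TPM with Siglec-XII, while the other 10 markers, VIL1, CDH17 and HNF4A among them, did not exceed 1.23 on the log2 scale in any sample. Of 14 trophoblast markers, 10 passed, led by GATA3 and HSD3B1, with CGB3, CGB5 and CGB8 near 0 and sums of 993 to 1092 TPM and 984 to 1055 TPM. GATA3, HSD3B1, TFAP2C and SIGLEC6 had group means between 7.07 and 8.64 on the log2 scale. The rest of the 14 did not exceed 3.05 in any sample. Of 6 fibroblast markers, 5 passed, with sums of 70.7 to 86.8 TPM and 83.2 to 89.1 TPM. Most of the colon markers were thus below the filter, and the part of any of these lists in the results was not tested. The name Caco-2 rests on the labels, and whether these levels match that line was not tested either. Bulk RNA cannot tell a smaller share of cells of a type from less RNA per cell.

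No translation factor differed between the groups by limma at an adjusted p under 0.05. Of the 67 genes, 60 reached 1 TPM in at least 4 samples and were tested, and 0 of these 60 passed, against 0.648% of all 15590 entries tested (0.34% higher and 0.308% lower). The 7 that did not pass the filter are EIF1AY, EIF2S3B, EIF4E1B, EIF4EBP3, EIF5AL1, EEF1E1-BLOC1S5 and EEF1AKMT4-ECE2. At an unadjusted limma p under 0.05 there were 16, where the share over all entries is 16.5%, with 13 higher (13.9% of all entries) and 3 lower (2.61%). In 15 the groups did not overlap (10.8% of all entries), 12 of them higher (9.17%) and 3 lower (1.68%). The mean was higher with Siglec-XII for 36 of the 60, against 68.1% of all entries, and the median difference was 0.02, against 0.07 over all entries tested. The 95% confidence interval of the difference lay within 1.5-fold in either direction for 59 of the 60 factors and within 1.2-fold for 39. EIF3CL was the exception at 1.5-fold.

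The split between higher and lower depended on how the samples were scaled to each other. At an unadjusted limma p under 0.05 it was 13 higher and 3 lower in the values as deposited, 8 and 10 after quantile normalization, 6 and 13 with equal upper quartiles, 6 and 12 with the mitochondrial and the 100 most abundant entries left out of the scaling, and 5 and 14 with the trend on transcript length removed. Over all entries tested (15590, or 14313 with the length trend removed) the split at that p moved too. It was 2160 higher and 407 lower as deposited. In the same order of scalings it was then 1094 and 878, 1122 and 886, 1373 and 711, and 893 and 894. No factor passed an adjusted p of 0.05 under any of these scalings. The median over all entries tested lay between 0.00 and 0.07 across these scalings. The median over the factors stayed below it each time, over 60 factors or, with the length trend removed, over the 57 with a known length. Length here is that of the 1 transcript named for each entry, such as 419 bases for EEF1D. It may not be the length of the transcripts behind the level. Sizes moved as well. Of the 16 factors with an unadjusted p under 0.05 as deposited, 8 had a difference over 1.5 times smaller under at least 1 other scaling. At their lowest these were 0.08 for EIF4G1, 0.07 for EIF5, 0.04 for EIF4H, 0.07 for EIF4G3, 0.09 for EIF4A3, 0.08 for EIF2S1, 0.07 for EIF2B2 and -0.00 for EIF4EBP2. Directions that turn with the scaling are named beside each result.

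**Figure D1:**
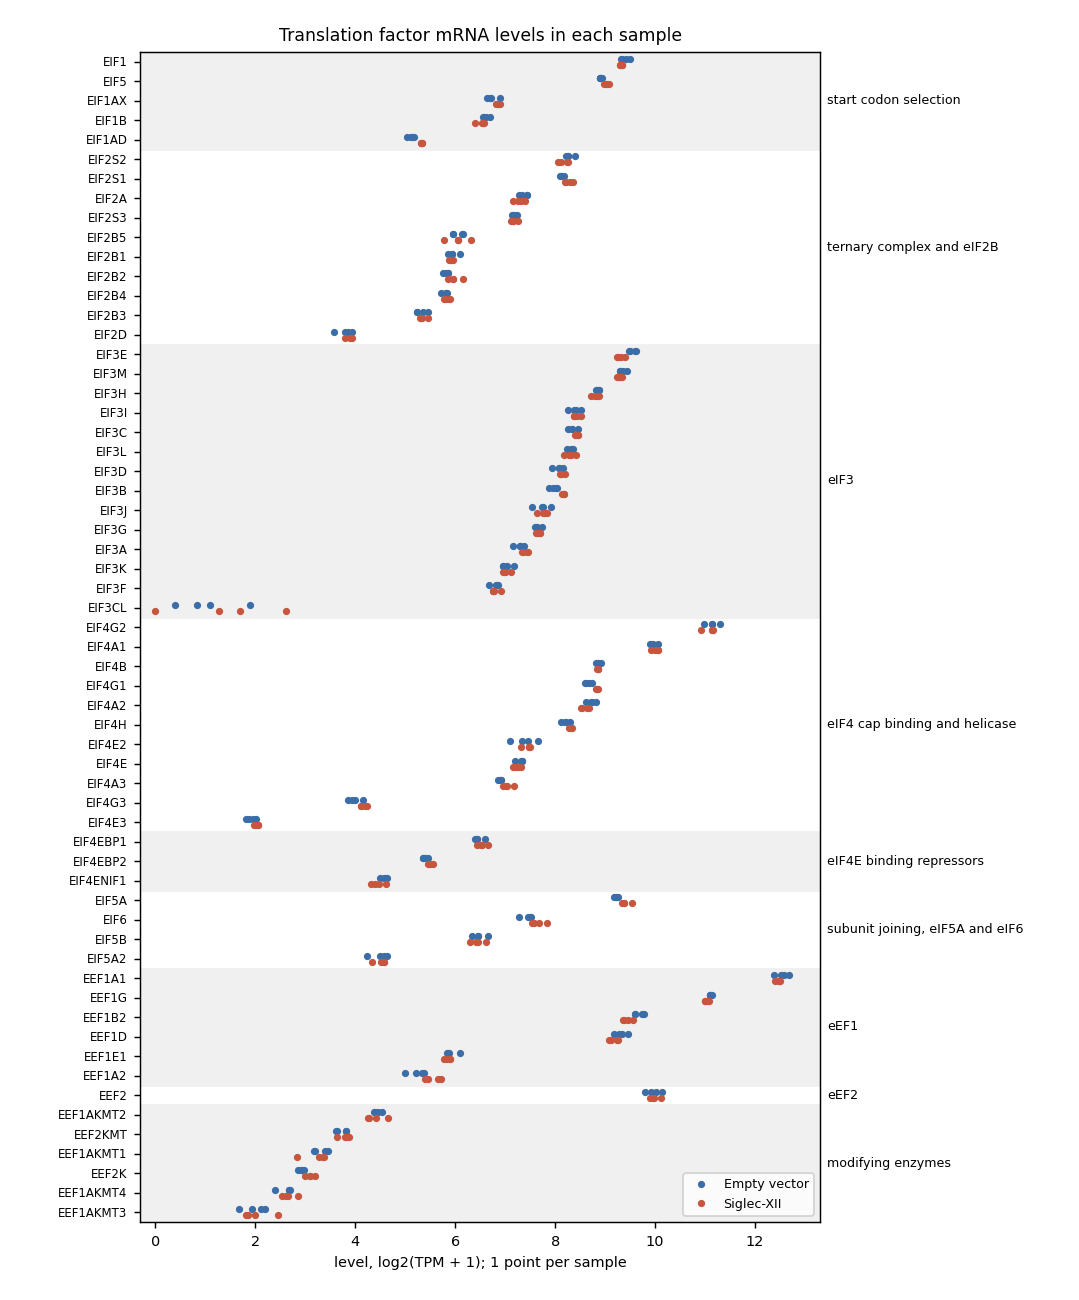
Level of each of the 60 tested translation factors in each sample, as log2(TPM + 1) on the horizontal axis, grouped by role, with empty vector samples in blue and Siglec-XII samples in red. The roles span the whole range of levels, with EEF1A1 highest at 12.39 to 12.69, and for most factors the 2 colours lie on top of each other.

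Of all TPM, the factors made up 2.39% ± 0.04 in the empty vector samples and 2.33% ± 0.04 in the Siglec-XII samples (SD, n = 4 each), with ranges of 2.35% to 2.43% and 2.30% to 2.39% that overlap. EEF1A1 alone gave 25.0% ± 1.89 and 24.2% ± 0.769 of that sum (SD, n = 4 each). The sum holds 1 entry per symbol and leaves out the second entries of EEF1B2, EEF1D, EEF2K, EIF3F and EIF3K. With them the share of the factors would be larger and that of EEF1A1 within it smaller. By the mean TPM of single entries over all samples the order was EEF1A1 (5814 TPM), EIF4G2 (2222 TPM), EEF1G (2152 TPM), EEF2 (1011 TPM) and EIF4A1 (1010 TPM). The groups overlapped for EEF1A1, EIF4G2, EEF2 and EIF4A1. Those of EEF1G did not, with 2205 ± 24.4 TPM for the empty vector and 2098 ± 53.3 TPM for Siglec-XII (SD, n = 4 each). At the lower end of the tested factors lay EIF4E3 and EEF1AKMT3, at about 3 TPM, and EIF3CL. EEF1B2, EIF3F and EIF3K each stand in the table as 2 entries with identical values, so their total is 1 log2 unit above the level given for 1 entry, and the difference between groups is the same. Counted so, EEF1B2 lies above EEF2 and EIF4A1, with 10.68 ± 0.10 in the empty vector samples and 10.43 ± 0.10 in the Siglec-XII samples (SD, n = 4 each).

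Among the genes grouped under start codon selection, 3 of 5 tested were higher and 2 lower, with a median difference of 0.12. These counts were the same under every scaling, but the median lay between 0.03 and 0.08 under the 4 other scalings. At an unadjusted limma p under 0.05 there were 2 higher and 0 lower as deposited. After quantile normalization there were 2 and 2, and under the remaining scalings 1 and 2. EIF1AD, 1 of the 3 higher genes, encodes an eIF1A-like protein and is grouped here by symbol only. It had 5.03, 5.11, 5.17 and 5.14 in empty vector samples 1 to 4 and 5.34, 5.32, 5.32 and 5.35 in Siglec-XII samples 1 to 4. All Siglec-XII samples lay above all empty vector samples. The difference was 0.22 (95% interval 0.11 to 0.33, limma adjusted p = 0.0971), the smallest p of a factor on the higher side. EIF5, the GTPase-activating protein of eIF2, had 8.93, 8.89, 8.90 and 8.90 against 9.05, 9.03, 9.08 and 8.99. Its groups did not overlap either, although the difference was only 0.13 (0.05 to 0.21, limma adjusted p = 0.147). EIF1, the most abundant of the role and the factor that keeps the scanning ribosome open, had 9.34, 9.50, 9.32 and 9.42 against 9.30, 9.33, 9.34 and 9.30. Its groups overlap and the value with Siglec-XII was 0.07 lower (interval -0.18 to 0.03).

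The genes grouped with the ternary complex include 3 subunits of eIF2 and 5 of eIF2B, the exchange factor that reloads eIF2 with GTP. EIF2A and EIF2D, grouped here by symbol, are subunits of neither. Of the 10 tested genes of this group, 6 were higher and 4 lower with a median of 0.02. Under the 4 other scalings 3 or 4 were higher and the median lay between -0.05 and -0.02. The 3 subunits of eIF2 did not share a direction. EIF2S1, which encodes the alpha subunit that the stress kinases phosphorylate, had 8.14, 8.18, 8.09 and 8.11 with the empty vector and 8.31, 8.22, 8.35 and 8.20 with Siglec-XII. These groups did not overlap, with a difference of 0.14 (0.04 to 0.24, limma adjusted p = 0.189). EIF2S2, the beta subunit, had 8.40, 8.26, 8.21 and 8.25 against 8.26, 8.12, 8.24 and 8.06. Here the groups overlap, the difference was -0.12 (-0.25 to 0.02, limma adjusted p = 0.367), and that of EIF2S3, the gamma subunit, was -0.01 (-0.11 to 0.10). Of the 5 eIF2B genes the beta subunit EIF2B2 had the smallest p, with a difference of 0.16 (0.01 to 0.31, limma adjusted p = 0.268).

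EIF3E and EIF3B, both subunits of eIF3, had differences of opposite sign. EIF3E (ENSG00000104408, minus strand of chromosome 8), a subunit with a PCI domain, had 9.62, 9.47, 9.50 and 9.60 in empty vector samples 1 to 4 and 9.32, 9.24, 9.39 and 9.25 in Siglec-XII samples 1 to 4. Every Siglec-XII sample was below every empty vector sample. The means were 748 ± 38.6 and 630 ± 30.4 TPM (SD, n = 4 each), the difference was -0.25 (-0.36 to -0.13), and the limma p of 0.000919 was the smallest of the 60 but did not pass after adjustment (adjusted p = 0.0858). EIF3B (ENSG00000106263, plus strand of chromosome 7, 2393721 to 2420380 in GRCh37), the scaffold of the complex, had 7.95, 8.04, 8.02 and 7.88 against 8.17, 8.13, 8.16 and 8.18. All 4 Siglec-XII samples were above all 4 empty vector samples, by 0.19 on average (0.09 to 0.28, limma adjusted p = 0.104). Both signs held under every scaling.

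The other eIF3 genes differed less. EIF3A, EIF3B, EIF3G and EIF3I had a median of 0.07 and all 4 were higher as deposited, but 2 of the 4 under each other scaling. For the 8 genes EIF3C, EIF3D, EIF3E, EIF3F, EIF3H, EIF3K, EIF3L and EIF3M the median was -0.01, with 3 higher and 5 lower, and 2 and 6 under each other scaling. EIF3C had 8.35, 8.45, 8.27 and 8.34 against 8.42, 8.41, 8.46 and 8.46, which overlap. EIF3CL, its near-identical copy on the same chromosome, had 1.89, 0.39, 1.10 and 0.84 against 0.00, 2.62, 1.28 and 1.69. It was listed at 0 in Siglec-XII sample 1 and above both groups' other samples in Siglec-XII sample 2. Reads can be split between such copies, and their sum was 327 ± 17.3 TPM with the empty vector and 348 ± 5.83 TPM with Siglec-XII (SD, n = 4 each).

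Of the 11 tested eIF4 genes, 7 had a higher mean with Siglec-XII and 4 a lower one, with a median difference of 0.05, and 5 to 7 of the 11 were higher under 3 other scalings and 4 of the 9 with a known length when the length trend was removed. EIF4G1 (ENSG00000114867, plus strand of chromosome 3, 184032283 to 184053146 in GRCh37), the scaffold that links the cap to the ribosome, had 8.67, 8.73, 8.63 and 8.59 with the empty vector and 8.86, 8.81, 8.84 and 8.84 with Siglec-XII. The groups did not overlap and the difference was 0.18 (0.09 to 0.27, limma adjusted p = 0.101). EIF4G2, a related scaffold that does not bind eIF4E, was 5.20 times as abundant on average and had 11.31, 11.13, 11.14 and 10.99 against 11.14, 11.13, 11.16 and 10.91. The groups overlap, and the difference of -0.06 (-0.23 to 0.12) became 0.05 after quantile normalization. EIF4G3 differed by 0.17 (0.00 to 0.35, limma adjusted p = 0.296), and EIF4E, the cap-binding protein, by -0.07 (-0.18 to 0.05).

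The helicase eIF4A has 3 genes here, of which EIF4A3 acts in the exon junction complex. EIF4A1 had 9.91, 9.89, 9.95 and 10.06 against 9.996, 9.92, 10.06 and 10.05, with groups that overlap and a difference of 0.05 (-0.06 to 0.17) that became -0.01 with equal upper quartiles. EIF4A2 had 8.72, 8.73, 8.62 and 8.81 against 8.69, 8.53, 8.63 and 8.51. The Siglec-XII samples reached lower but the groups overlap, with a difference of -0.13 (-0.26 to -0.00, limma adjusted p = 0.29). EIF4A2 was 29.8% ± 1.09 of the sum of the pair in the empty vector samples and 27.2% ± 1.35 in the Siglec-XII samples (SD, n = 4 each), with ranges of 28.3% to 30.9% and 25.5% to 28.7% that overlap. EIF4A3 had 6.87, 6.91, 6.91 and 6.91 against 7.02, 7.04, 6.96 and 7.19, which do not overlap, and differed by 0.15 (0.03 to 0.27, limma adjusted p = 0.208). EIF4H, which stimulates the helicase, differed by 0.10 (0.00 to 0.20, limma adjusted p = 0.294), and EIF4B, which does so too, by -0.01 (-0.10 to 0.07).

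The repressors that bind eIF4E showed small differences. EIF4EBP2 had 5.36, 5.45, 5.36 and 5.39 with the empty vector and 5.48, 5.45, 5.56 and 5.50 with Siglec-XII. The groups touch without overlapping, and the difference of 0.11 (0.00 to 0.22, limma adjusted p = 0.291) became 0.00 with the length trend removed. EIF4EBP1, the more abundant, had 6.40, 6.59, 6.43 and 6.45 against 6.43, 6.51, 6.55 and 6.66. Its groups overlap, with a difference of 0.07 (-0.07 to 0.21), and EIF4ENIF1, which carries eIF4E into the nucleus, differed by -0.13 (-0.29 to 0.04).

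EIF5A (ENSG00000132507, plus strand of chromosome 17, 7210318 to 7215782 in GRCh37), the factor that carries hypusine and relieves stalled ribosomes, had 9.18, 9.26, 9.22 and 9.21 with the empty vector and 9.34, 9.38, 9.38 and 9.53 with Siglec-XII. Every Siglec-XII sample was higher, by 0.19 on average (0.08 to 0.30, limma adjusted p = 0.115). Its paralog EIF5A2 had 4.50, 4.58, 4.24 and 4.63 against 4.52, 4.57, 4.34 and 4.57. These values overlap throughout, and the difference of 0.01 (-0.20 to 0.23) turned negative under each other scaling. EIF6, which keeps the large subunit apart until it is mature, differed by 0.22 (0.05 to 0.39, limma adjusted p = 0.216) with groups that did not overlap, and the subunit joining factor EIF5B by -0.04 (-0.22 to 0.15).

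**Figure D2:**
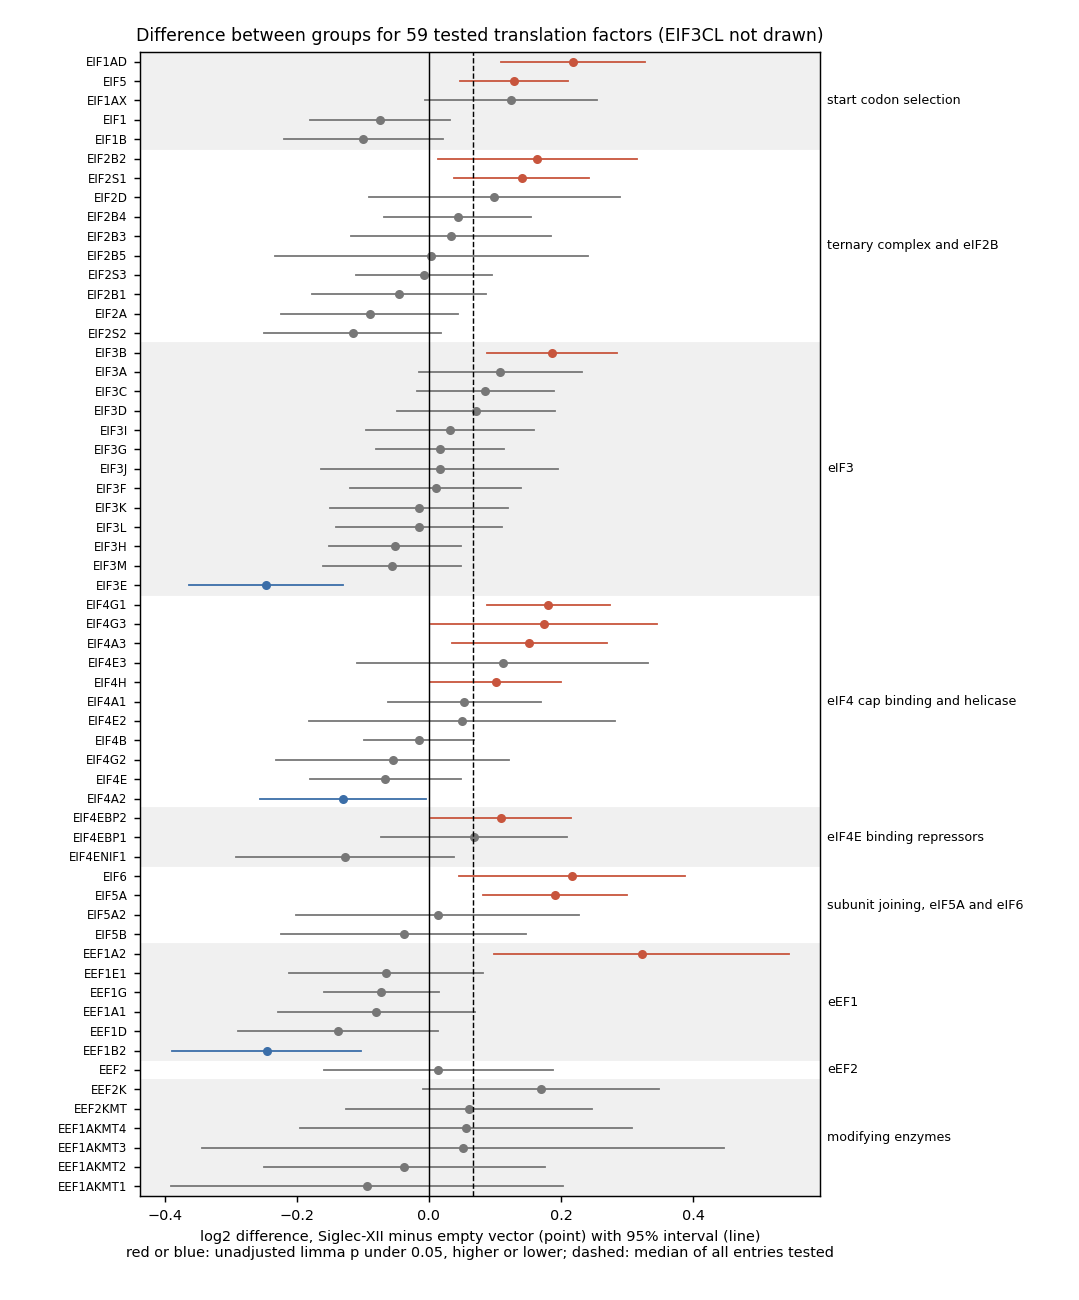
Log2 difference of Siglec-XII minus empty vector for 59 tested factors (points) with its 95% confidence interval from limma (lines), by role. Coloured intervals have an unadjusted p under 0.05 (red higher, blue lower), the dashed line is the median over all entries tested at 0.07, and EIF3CL is not drawn because its interval runs from -0.82 to 1.5.

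Among the genes grouped by symbol with the elongation factor eEF1, 5 of the 6 tested were lower in the Siglec-XII samples. EEF1A2 was higher, and the median was -0.08. The 5 include EEF1E1 (-0.07), which shares the symbol but is not an eEF1 subunit. After quantile normalization 4 of the 6 were lower, and 5 under the 3 other scalings. EEF1B2 (ENSG00000114942, plus strand of chromosome 2, 207024309 to 207027652 in GRCh37), the exchange subunit that recharges eEF1A, had 9.79, 9.59, 9.61 and 9.74 against 9.45, 9.37, 9.56 and 9.35. All 4 Siglec-XII samples were below all 4 empty vector samples. The difference was -0.25 (-0.39 to -0.10, limma adjusted p = 0.123). EEF1G, the structural subunit of the same complex, had 11.13, 11.10, 11.11 and 11.10 against 11.01, 11.00, 11.06 and 11.07, also without overlap, but differed by only -0.07 (-0.16 to 0.01, limma adjusted p = 0.38). EEF1D, the other exchange subunit, had 9.46, 9.33, 9.28 and 9.17 against 9.12, 9.07, 9.25 and 9.25, which overlap (difference -0.14, -0.29 to 0.01, limma adjusted p = 0.343). It stands in the table as 2 entries with different values, of which the higher is given, and their sum differed by -0.11 (limma adjusted p = 0.349).

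EEF1A1 (ENSG00000156508, minus strand of chromosome 6, 74199031 to 74235310 in GRCh37), the general carrier of aminoacyl-tRNA, ranked between 4 and 14 among all entries of the table. It had 12.39, 12.58, 12.52 and 12.69 with the empty vector and 12.40, 12.47, 12.48 and 12.51 with Siglec-XII, and its difference of -0.08 (-0.23 to 0.07, limma adjusted p = 0.587) became 0.05 after quantile normalization. The lowest and the highest sample were both empty vector samples. EEF1A2, which replaces it in muscle and neurons, had 5.0, 5.33, 5.22 and 5.38 against 5.40, 5.65, 5.46 and 5.72. No values overlap, and the difference of 0.32 (0.10 to 0.55, limma adjusted p = 0.17) corresponds to 36.8 ± 4.21 and 46.2 ± 5.01 TPM (SD, n = 4 each). As a share of the sum of both genes EEF1A2 was 0.611% ± 0.0257 and 0.811% ± 0.0682 (SD, n = 4 each), with ranges of 0.576% to 0.638% and 0.748% to 0.880%. EEF2, the translocase, had 10.15, 10.02, 9.92 and 9.80 against 9.98, 9.91, 10.11 and 9.95, which overlap. Its difference was 0.01 (-0.16 to 0.19, limma adjusted p = 0.944) and turned negative under 3 of the 4 other scalings.

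**Figure D3:**
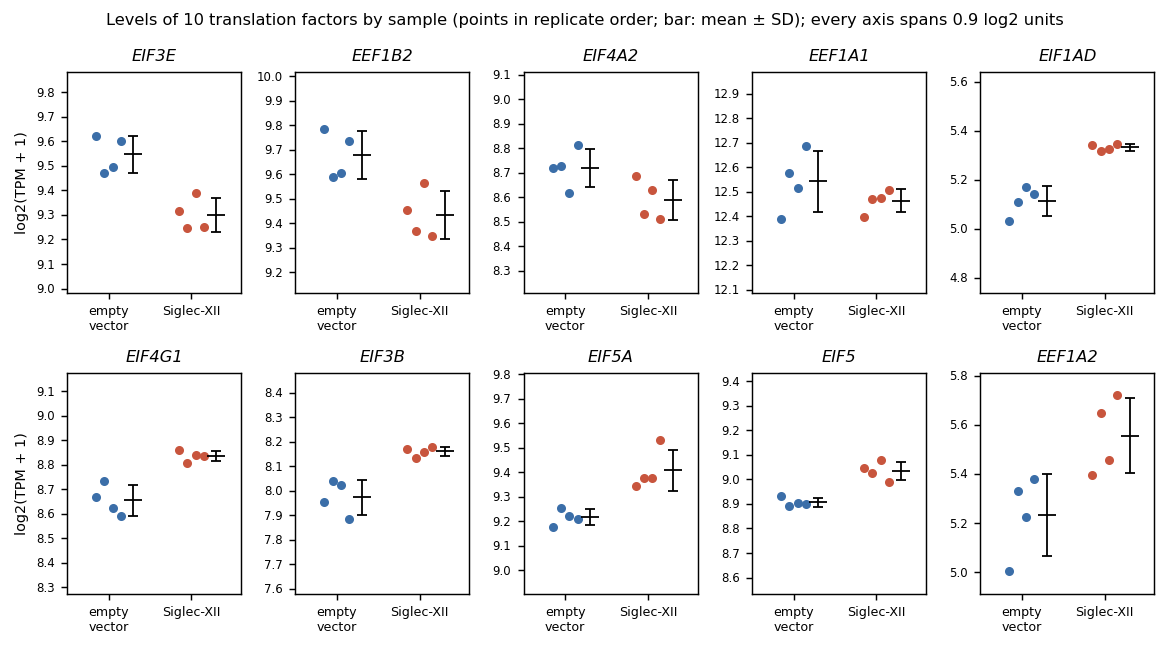
Level in each sample, as log2(TPM + 1), for 10 factors, with samples in replicate order and the mean ± SD (n = 4) beside them. The Siglec-XII points lie below all empty vector points for EIF3E and EEF1B2, above all of them for EIF1AD, EIF4G1, EIF3B, EIF5A, EIF5 and EEF1A2, and overlap with them for EIF4A2 and EEF1A1.

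The 6 tested enzymes that modify these factors had levels from 3.07 to 20.5 TPM and none had an unadjusted p under 0.05. EEF2K, the kinase that inhibits eEF2, had 2.86, 2.98, 2.93 and 2.93 against 3.09, 3.09, 2.99 and 3.20. The groups did not overlap and the difference was 0.17 (-0.01 to 0.35, limma adjusted p = 0.325). The symbol stands on a pair of entries, and with both summed the difference was 0.13 (limma adjusted p = 0.555). EEF1AKMT2, a lysine methyltransferase of eEF1A and the most abundant of these, had 4.39, 4.46, 4.37 and 4.54 against 4.66, 4.25, 4.42 and 4.28, with overlap and a difference of -0.04 (-0.25 to 0.18).

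The factors with and without a pyrimidine start, whose windows are given above, are set side by side next. Of 47 tested factors with a window, 12 had the tract (25.5%), as did 7.84% of all tested entries with a window. These 12 are EEF1A1, EEF1B2, EEF2, EIF2A, EIF2D, EIF2S3, EIF3D, EIF3F, EIF3K, EIF3M, EIF4A2 and EIF4B. Of the 12, 4 had a higher mean with Siglec-XII and 8 a lower one, with a median difference of -0.01 and a range of -0.25 to 0.10. Of the 35 without the tract, 25 were higher and 10 lower, with a median of 0.05 and a range of -0.13 to 0.22. At an unadjusted limma p under 0.05 there were, as deposited, 0 higher and 2 lower with the tract, and 12 higher and 0 lower without it. Under the other scalings, in the order given above, those without it had 7 higher and 4 lower, 5 and 4, 5 and 4, and 4 and 4. Those with it had 0 higher each time and 3, 5, 4 and 6 lower. At any p, 18, 17 and 20 of the 35 without it and 14 of 32 were then higher. Among all tested entries, 13.2% of those with the tract were higher and 6.17% lower at that p, and 15.5% and 1.77% of those without it. The remaining 2 of the 16 factors, EEF1A2 on the higher side and EIF3E on the lower, have no window here. Over all tested entries the medians were 0.04 for 826 with the tract and 0.07 for 9715 without it. With ribosomal proteins and these factors left out, 754 entries with the tract remained. Of these, 14.5% were higher and 3.32% lower at an unadjusted limma p under 0.05, with a median of 0.06. The median of the 12 stayed below that of the factors without the tract (35, or 32 with the length trend removed) under each other scaling, where 4, 2, 2 and 2 of the 12 were higher and the 2 medians were -0.06 and 0.05, -0.08 and -0.01, -0.06 and 0.01, and -0.10 and -0.01.

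A list of 9 factors long known as TOP messages (EEF1A1, EEF1B2, EEF1D, EEF1G, EEF2, EIF3E, EIF3F, EIF3H and EIF4B) shares 5 genes with these 12 (5 of the 9 and 5 of the 12). Of the other 4, EEF1G has a window without the tract, and EEF1D, EIF3E and EIF3H have no window here. In it 7 of 9 were lower with a median of -0.07, against 17 of the 51 other tested factors, with a median of 0.05. Quantile normalization also left 7 of 9 lower, and all 9 were lower under the 3 other scalings. None of the 9 passed an adjusted p of 0.05.

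**Figure D4:**
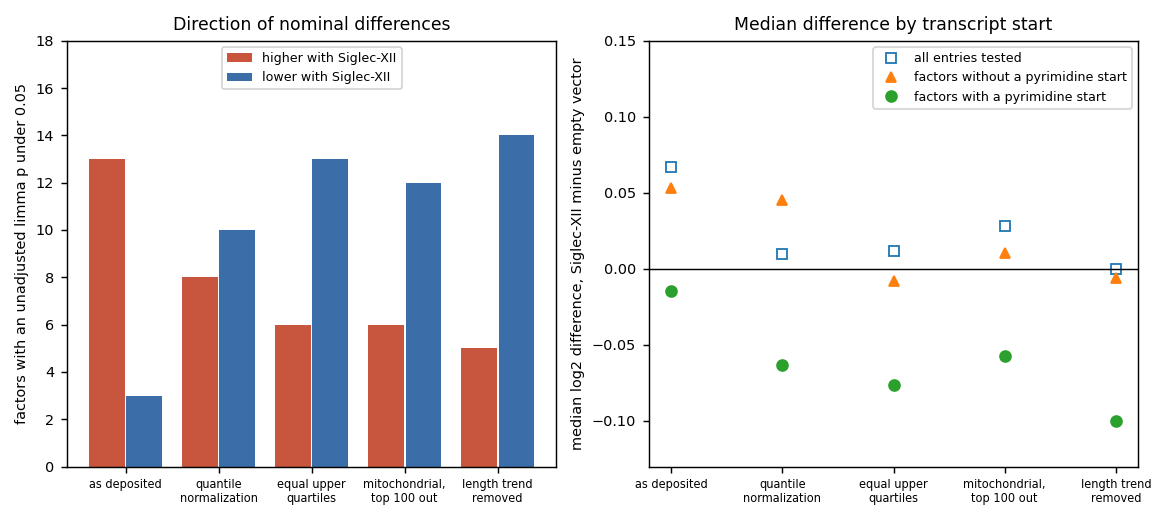
Left, number of the tested factors with an unadjusted limma p under 0.05, higher (red) or lower (blue) with Siglec-XII, under 5 scalings of the samples. Right, median log2 difference under the same scalings for all entries tested, for factors without a pyrimidine start and for factors with one. The split at left turns from 13 higher and 3 lower to 5 and 14, while at right the factors with a pyrimidine start have the lowest median under each scaling. Over all entries tested, not drawn at left, the split went from 2160 and 407 to 893 and 894.

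Other genes of the pathway were read from the same fit. Of 49 genes that regulate or assist these factors, all were tested, 36 were higher and 13 lower, and the median difference was 0.08. Over all entries tested 68.1% were higher, with a median of 0.07. None passed a limma adjusted p of 0.05, and 7 had an unadjusted p under 0.05 (16.5% of all entries), all of them higher (13.9%). With equal upper quartiles 1 did, which was higher, and after quantile normalization or with the length trend removed 1 was higher and 1 lower. Among the 19 regulators of the mTOR and eIF2 kinase arms 16 were higher, with a median of 0.10, beside the same 68.1% and 0.07 over all entries. MKNK2, a kinase that phosphorylates eIF4E, had 4.90, 5.01, 4.94 and 5.01 with the empty vector and 5.27, 5.30, 5.17 and 5.11 with Siglec-XII, all higher (difference 0.25, limma adjusted p = 0.109). LARP1, which binds TOP tracts, had 7.27, 7.33, 7.17 and 7.19 against 7.45, 7.34, 7.37 and 7.45, without overlap (difference 0.16, limma adjusted p = 0.168). MTOR, the kinase that regulates LARP1, differed by 0.15, also without overlap (limma adjusted p = 0.194). Under the other scalings the difference of LARP1 lay between 0.06 and 0.12, that of MTOR between 0.06 and 0.11 and that of MKNK2 between 0.17 and 0.21. The genes of smallest p on the lower side were DHPS, the first enzyme of hypusine synthesis on eIF5A, at -0.17 (limma adjusted p = 0.466), DPH5, which acts in diphthamide synthesis on eEF2, at -0.09, and MKNK1 at -0.10. The 17 accessory factors had a median of 0.05, the 5 termination and rescue factors 0.03 and the 8 mitochondrial factors 0.03.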

How the data were processed

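RNA-seq of 8 Caco-2 samples (4 empty vector, 4 Siglec-XII) was used. The authors quantified reads against hg19 with kallisto (version 0.45.0 in the submitters' processing notes) and deposited log2(TPM + 1) values, which were used without further scaling. Per the labels, libraries were made from total RNA with a strand-specific kit, whereas the study's methods name an mRNA kit. TPM keeps no depth, so the reads behind each value are unknown, and the labels give a target of 25000000 to 40000000 reads of 100 bp per sample. Levels are relative to the rest of the RNA in a sample. No batch is given.

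The comparison used limma 3.58.1 under R 4.3.3 (lmFit, eBayes with a mean-variance trend, Benjamini-Hochberg adjustment) over 15590 entries of at least 1 TPM in at least 4 samples, after tests on simulated data. SIGLEC12 was compared by an exact permutation test of group means (70 labellings). Gene positions are from GENCODE lifted to GRCh37, and transcript starts from RefSeq (GRCh38.p14). The factors and lists were chosen with earlier results of these data known. Every sample's value is given for the factor of smallest p and of highest TPM in each role and for paralog pairs, and for others chosen after their values were seen (EIF5, EIF3B, EIF4A3, EEF1D, EEF1G). Of the pathway, the 3 of smallest p on each side were named. The higher entry was used where a symbol repeats. Alternatives were a pseudocount of 0.1, no filter, a mean of at least 5 TPM, 4 other scalings, the replicate number as a block, eBayes without the trend, each sample left out, small structured RNAs left out, and near-identical copies or repeated symbols summed.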

Additional observations from a re-analysis of the deposited data

Results flagged for a closer look

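Among 64 groups of 4 samples examined for a sample standing apart by Dixon's criterion, 3 were found, and chance alone gives about 1 in 20 groups. EIF4A3 had 6.87 in empty vector replicate 1, where the other 3 samples of that group had 6.91. EIF4E had 7.21 in empty vector replicate 2, below 7.32 to 7.34 in the others. EIF4G2 had 10.91 in Siglec-XII replicate 4, below 11.13 to 11.16 in the others, and without that sample its difference of -0.06 became 0.00.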

How the results depend on the processing

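Under 20 alternatives no translation factor and no pathway gene passed a limma adjusted p of 0.05, and between 11 and 19 factors had an unadjusted p under 0.05. The median difference of 0.02 moved to -0.00445 with quantile normalization, -0.0373 with equal upper quartiles, -0.0185 with mitochondrial and the 100 most abundant entries left out and -0.0464 with the length trend removed, and the cause was not tested. Of 38 genes compared, 30 kept their sign throughout. Quantile normalization reversed EEF1A1 (0.0478), EIF4G2 (0.0520) and EIF5A2 (-0.0596). Equal upper quartiles reversed EEF2 (-0.0474), EIF4A1 (-0.00824) and EIF5A2 (-0.0456). Leaving out mitochondrial and abundant entries reversed EEF2 (-0.0286) and EIF5A2 (-0.0275). Removing the length trend reversed EEF2 (-0.0600), EIF4EBP2 (-0.00168) and EIF5A2 (-0.0845). With 1 sample left out in turn, the difference ran from -0.0447 to 0.0725 for EEF2, -0.0689 to 0.0668 for EIF5A2, -0.122 to 0.0147 for EEF1AKMT2, -0.0680 to 0.807 for EIF3CL and -0.106 to 0.00377 for EIF4G2. Of the 33 genes that kept their sign in this, 13 moved by over 1.5 times, among them EEF1A1 (-0.131 without empty vector replicate 1, -0.0307 without empty vector replicate 4), EIF4EBP1 (0.0271 without Siglec-XII replicate 4, 0.110 without empty vector replicate 2) and EIF1 (-0.0393 without empty vector replicate 2). That of SIGLEC12 ran from 10.57 to 10.62, at an exact permutation p of 0.0571, the smallest that 4 against 3 samples can give.

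Samples with the same replicate number did not deviate together (correlations across genes of 0.04, 0.03, -0.07 and 0.06). Samples with different numbers had -0.12 to 0.07. Correlations like these cannot tell whether samples were paired by design, which is not stated. With the replicate number as a block, 13 factors had an unadjusted p under 0.05 (11 higher, 2 lower) and 0 passed adjustment. Over all 15590 entries 1998 were then higher and 469 lower at that p, and 69 passed adjustment. The pathway count of 7 at an unadjusted p under 0.05 was 1 with equal upper quartiles, 2 with quantile normalization, 2 with the length trend removed, 4 with abundant entries left out, 4 without Siglec-XII replicate 3 and 5 to 10 in the others. Over all entries, 101 passed adjustment as deposited and between 27 (small structured RNAs left out) and 159 (without empty vector replicate 2) otherwise. The sum of repeated symbols was added after seeing the data. Depth is unknown, so values near 1 TPM, such as EIF3CL, carry an error that cannot be given.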

Other observations

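The 137 pseudogene entries left out summed to 96.9 ± 4.34 TPM with the empty vector and 104 ± 10.4 TPM with Siglec-XII (SD, n = 4 each). Those named for EEF1A1 summed to 0.872% ± 0.102 and 0.859% ± 0.0389 of the level of EEF1A1. The ratio of EIF4G2 to EIF4G1 in TPM was 5.63 ± 0.454 with the empty vector (5.28 to 6.23) and 4.78 ± 0.379 with Siglec-XII (4.22 to 5.02), without overlap. The summed 4E-binding proteins stood to EIF4E as 0.827 ± 0.0797 and 0.917 ± 0.0851, with overlap. Across the 57 tested factors with a known length of the transcript named for the entry, the rank correlation of that length and the difference was 0.21. It was 0.15 over 14313 entries. Both are descriptions, since all points come from the same 8 samples and the named transcript may not be the one measured.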
